A study of Mus musculus with 6 samples.

Results

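The genes that make sterols and fatty acids were followed in retinal cells of mice that overexpressed *Ezh2* or *GFP*. Members were taken by name from the list of cholesterol synthesis, *Srebf2* pathway and lipogenesis genes, and 32 of the 55573 genes in the count table were found. Of these, 18 encode enzymes of sterol synthesis, 5 encode regulators or a sterol carrier, and 9 belong to the fatty acid arm. All 32 passed the filter on low counts.

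To ask how *Ezh2* acts after injury, adult C57BL/6J mice of both sexes received an intravitreal injection of adeno-associated virus, either AAV2-*GFP* (control) or AAV2-*Ezh2*. The optic nerve was crushed 2 weeks later in both groups, and dissociated retinal cells were sorted 3 days after the crush, by CD90.2 (the product of *Thy1*) with dead cells gated out. RNA-Seq counts were available for 3 libraries per group, which share strain, injury and timing and differ in the viral cargo. The promoter of the vectors and the number of mice behind each library are not given in the labels. They do not say that the replicates are separate animals, so p values then measure only the spread between these samples.

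Total counts ranged from 30569933 to 35971192 per library, and mitochondrial genes took 1.65% to 2.23% of them. *Ezh2* itself, the catalytic subunit of the Polycomb complex PRC2, reached 28.8, 34.6 and 33.0 CPM (counts scaled by the total of their library) in the GFP libraries and 78.0, 65.3 and 104.8 CPM in the Ezh2 libraries. Its log2 fold change was 1.17 ± 0.086 (SE, edgeR adjusted p = 1.56e-07) in the 5 libraries without Ezh2 replicate 3 and 1.41 ± 0.18 (SE, edgeR adjusted p = 0.00801) in all 6. Ezh2 replicate 3 stood apart. Its correlations with the other Ezh2 libraries across genes were 0.964 and 0.965, and theirs with each other 0.987. An Ezh2 library was excluded by the study, and the columns of its heatmap point to this one, an inference. Results are therefore given without it and then with it. The labels call the cells retinal ganglion cells (RGCs). Of the defining RGC transcription factors, *Pou4f2* had 0 to 3 counts per library, *Pou4f3* 2 to 13 and *Pou4f1* 0 to 19, while *Isl1*, which other retinal neurons express too, had 5.98 to 11.7 CPM. Among the other RGC markers, *Rbpms* had 16.4 to 20.8 CPM, *Nefl* 9.42 to 15.4 CPM and *Slc17a6* 4.09 to 8.17 CPM. In comparison, *Glul*, a gene of Müller glia, reached 5446 to 9900.2 CPM. Several kinds of retinal cell were thus represented, and in such bulk samples fewer cells of a type and less RNA per cell cannot be told apart.

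Cholesterol is built from acetyl-CoA through mevalonate, squalene and lanosterol, and fatty acids are built from the same acetyl-CoA through malonyl-CoA. The transcription factor encoded by *Srebf2* is held in the endoplasmic reticulum with its escort Scap by the Insig proteins. When sterols are low it travels to the Golgi, is cleaved, and switches on most genes of the sterol pathway by binding sterol regulatory elements, often beside factor NF-Y on CCAAT boxes. The related factor encoded by *Srebf1* acts more on the fatty acid arm. The retina both makes cholesterol and takes it up from blood, and glial cells hand lipids to neurons in lipoproteins.

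The promoters of 6 members are shown, of 5 that fell in the 5 libraries and of *Hmgcs1*, whose product makes HMG-CoA. *Hmgcs1* itself did not pass the threshold of adjusted p. *Scd2* and *Fads1* also fell, but no RefSeq promoter was matched for them. Each run holds the 250 bases before and the 50 bases after a RefSeq start site (mouse build GRCm38.p6), 5′ to 3′ on the gene's strand, at chr13:119690101-119690400 (plus strand) for *Hmgcs1*, chr5:28071162-28071461 (plus strand) for *Insig1*, chr9:42264251-42264550 (minus strand) for *Sc5d*, chr8:64733529-64733828 (minus strand) for *Msmo1*, chr5:4104648-4104947 (minus strand) for *Cyp51* and chr15:82147019-82147318 (plus strand) for *Srebf2*. Capitals mark 3 motifs that were searched on both strands, the sterol regulatory element as TCACNCCAC, the CCAAT box by those letters (their complement where it lies on the other strand) and the E-box as CACGTG. The motifs do not overlap one another in these 6 windows.
Hmgcs1: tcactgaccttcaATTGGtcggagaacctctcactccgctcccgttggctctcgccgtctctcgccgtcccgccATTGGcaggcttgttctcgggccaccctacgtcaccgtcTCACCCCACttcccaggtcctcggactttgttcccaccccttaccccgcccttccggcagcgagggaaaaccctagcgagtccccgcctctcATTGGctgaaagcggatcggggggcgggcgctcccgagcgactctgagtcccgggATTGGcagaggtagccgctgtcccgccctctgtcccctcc
Insig1: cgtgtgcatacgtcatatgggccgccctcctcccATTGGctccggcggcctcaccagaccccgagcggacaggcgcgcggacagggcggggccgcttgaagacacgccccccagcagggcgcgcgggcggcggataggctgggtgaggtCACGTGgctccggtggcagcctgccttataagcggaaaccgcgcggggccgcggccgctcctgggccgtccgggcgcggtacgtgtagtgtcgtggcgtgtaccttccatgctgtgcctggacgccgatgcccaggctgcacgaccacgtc
Sc5d: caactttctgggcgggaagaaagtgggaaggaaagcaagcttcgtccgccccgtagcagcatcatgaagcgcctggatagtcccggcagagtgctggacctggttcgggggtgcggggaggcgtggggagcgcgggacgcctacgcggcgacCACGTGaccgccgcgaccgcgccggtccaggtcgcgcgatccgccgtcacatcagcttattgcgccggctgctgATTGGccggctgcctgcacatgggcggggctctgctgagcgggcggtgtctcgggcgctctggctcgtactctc
Msmo1: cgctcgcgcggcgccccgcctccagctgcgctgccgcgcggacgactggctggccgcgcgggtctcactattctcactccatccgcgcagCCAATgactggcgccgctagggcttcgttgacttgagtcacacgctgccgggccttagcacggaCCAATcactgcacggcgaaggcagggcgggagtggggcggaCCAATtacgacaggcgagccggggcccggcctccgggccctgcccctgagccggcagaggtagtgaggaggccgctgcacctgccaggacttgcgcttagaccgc
Cyp51: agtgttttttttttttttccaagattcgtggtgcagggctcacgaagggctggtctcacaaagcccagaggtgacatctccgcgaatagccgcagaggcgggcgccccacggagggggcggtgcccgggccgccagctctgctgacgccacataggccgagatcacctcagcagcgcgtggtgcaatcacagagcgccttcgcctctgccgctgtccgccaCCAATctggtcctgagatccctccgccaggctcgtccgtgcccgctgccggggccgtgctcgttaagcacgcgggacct
Srebf2: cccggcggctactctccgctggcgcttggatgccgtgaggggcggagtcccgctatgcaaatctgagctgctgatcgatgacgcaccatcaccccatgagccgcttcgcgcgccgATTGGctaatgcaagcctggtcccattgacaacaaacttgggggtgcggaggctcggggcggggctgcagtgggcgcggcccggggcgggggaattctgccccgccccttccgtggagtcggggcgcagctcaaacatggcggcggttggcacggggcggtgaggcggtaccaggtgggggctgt

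*Hmgcs1* carried a sterol regulatory element whose first base lies 137 bases before the start site, together with 4 CCAAT boxes. *Msmo1* carried 3 CCAAT boxes, and *Cyp51* and *Srebf2* carried 1 each. *Insig1* and *Sc5d* each held 1 CCAAT box and 1 E-box, the latter 101 and 98 bases before the start. RefSeq promoters were matched for 25 of the 32 members and were counted per gene over all windows listed for it. A CCAAT box was present in 20 of the 25 (80%) against 41.1% of 27025 genes, in 14 of 15 sterol enzymes, 3 of 6 genes of the fatty acid arm and 3 of 4 regulators. An E-box was present in 5 of 25 (20%) against 8.09% of genes. The searched spelling of the sterol regulatory element was present in 1 of 25 (4%) against 1.44%. Elements spelled otherwise were not searched for, so a gene without this match may still carry one. These matches describe letters in short windows and say nothing of binding.

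In the 5 libraries, 7 of the 32 genes fell with *Ezh2* overexpression and 0 rose (edgeR quasi-likelihood test, Benjamini-Hochberg adjusted p under 0.05 over 20241 genes). Among all genes tested, 7.07% fell and 9.38% rose. These shares cover genes of every read depth that passed the filter and were not matched to the members' counts. The genes that fell were *Cyp51*, *Msmo1* and *Sc5d* among the sterol enzymes, *Srebf2* and *Insig1* among the regulators, and *Scd2* and *Fads1* in the fatty acid arm. The changes were small. None of the 32 passed the fold change of 1.5 that the study required as well (3.73% of genes did, in either direction), and the decreases of the 7 genes, from the fitted fold changes, lay between 10.8% and 21.5%. At an unadjusted p under 0.05, 11 members were lower (13.5% of genes) and 0 higher (15.3%). When single libraries were left out, the count of 7 dropped most without Ezh2 replicate 1, to 3 genes (*Srebf2*, *Insig1* and *Fads1*), and without GFP replicate 1, to 4 (*Sc5d*, *Insig1*, *Scd2* and *Fads1*).

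Direction was shared more widely than significance. The log2 fold change was below 0 in 28 of 32 members (51.3% of genes). Ezh2 replicates 1 and 2 both lay below all GFP libraries in CPM for 20 members (23.4% of genes), and both lay above them for 2 members, *Mvd* and *Acly* (21.5% of genes). The median log2 fold change was -0.16 over the 32 members and -0.0078 over all genes tested.

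With Ezh2 replicate 3 included, 0 of the 32 members passed the edgeR test in either direction, where 2.27% of 19732 genes fell, 2.73% rose and 2.41% passed with a 1.5-fold change. Unadjusted, 6 members were lower (11.5% of genes) and 0 higher (13.9%). The 6 lower ones were *Hmgcs1*, *Sqle*, *Sc5d*, *Insig2*, *Scd2* and *Fads1*. The log2 fold change was below 0 in 21 members (49.0% of genes), with a median of -0.11 against 0.0083 for all genes. In CPM, all 3 Ezh2 libraries lay below all GFP libraries for 14 members (19.3% of genes) and above them for 1, *Acly* (14.9%). CPM used library totals and the fits used TMM scaling, and these scales could part. *Fasn* averaged 553 CPM with GFP and 543 CPM with Ezh2, yet its fitted log2 fold change was 0.013. Where Ezh2 replicate 3 lay just below the controls, as for *Msmo1*, *Insig1* and *Acss2*, the separation may depend on the scaling. Overlap under TMM scaling was not examined.

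**Figure D1:**
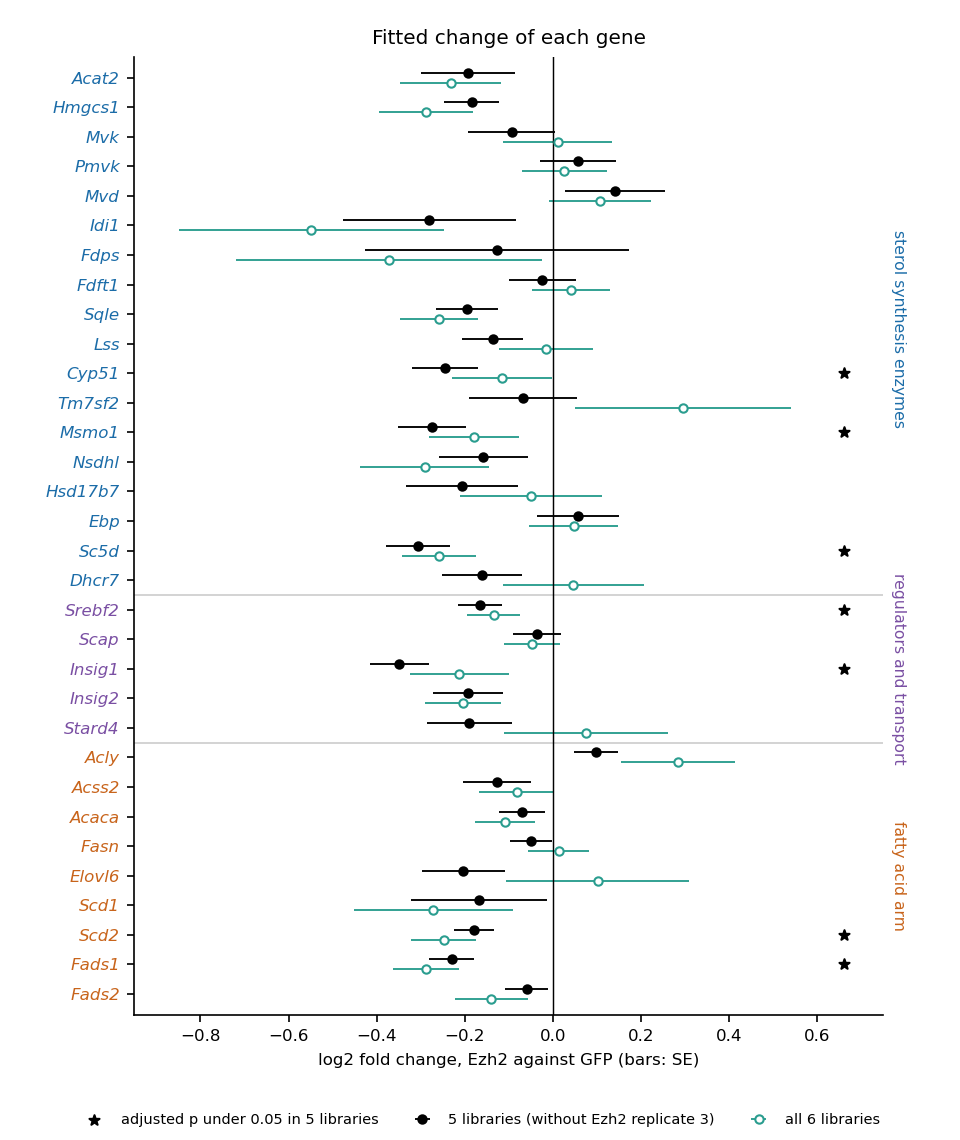
Log2 fold change of each of the 32 genes, Ezh2 against GFP, with bars for the SE, in the 5 libraries (filled) and in all 6 (open). Stars mark the 7 genes with an adjusted p under 0.05 in the 5 libraries, and most points lie left of 0.

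Levels were compared per length, as CPM per kb of exon, and spanned a wide range. *Scd2*, which encodes a stearoyl-CoA desaturase, was highest at 236 CPM per kb (mean of the 3 GFP libraries), followed by *Fads2* at 93.6, *Fasn* at 50.6, *Fads1* at 44.99, *Srebf2* at 39.9 and *Acly* at 35.5. The highest sterol enzyme was *Hmgcs1* at 19.8, and *Pmvk*, *Ebp* and *Sc5d* came next at 14.4, 11.2 and 10.4 CPM per kb. Most other sterol enzymes lay between 2.23 (*Hsd17b7*) and 9.05 (*Cyp51*). The lowest were *Idi1* at 1.76 and *Fdps* at 0.524. The 9 genes of the fatty acid arm summed to 2319.5 to 2840.2 CPM per library and the 18 sterol enzymes to 455 to 532.

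**Figure D2:**
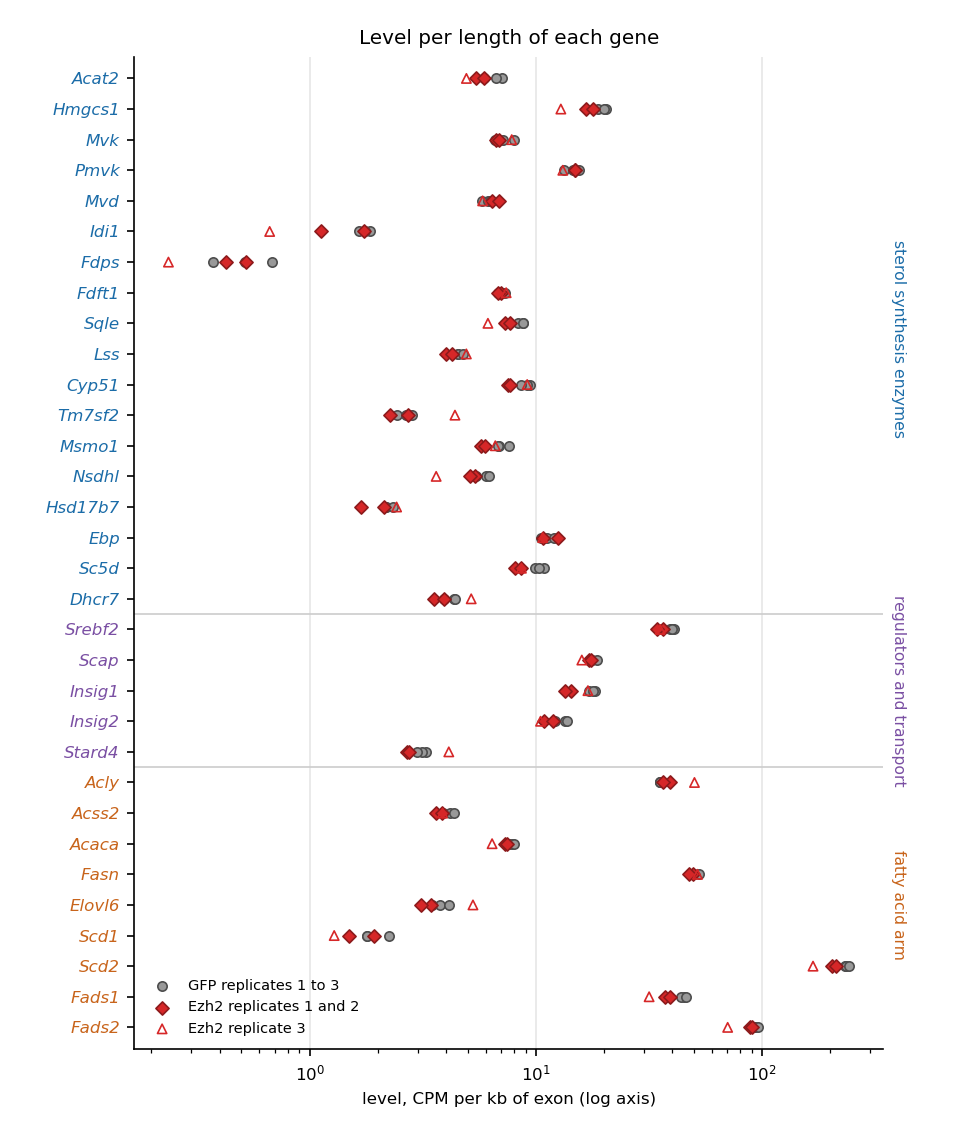
Level of each gene in CPM per kb of exon on a log axis, 1 point per library. *Scd2* is highest and *Fdps* lowest, and the differences between genes are far larger than those between the groups.

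Spread among the GFP libraries was small for the abundant members, with a coefficient of variation of 0.144% for *Acly* and 2.20% for *Scd2*. It was 13.5% for *Scd1* and 29.3% for *Fdps*, whose counts were only 36 to 88 per library. For *Acly* the value is below the error of counting its reads, so it does not measure precision.

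The first steps of sterol synthesis join acetyl units into mevalonate. *Acat2*, the cytosolic acetoacetyl-CoA thiolase, had 17.96, 15.1 and 16.9 CPM with GFP and 13.8, 15.04 and 12.5 CPM with Ezh2, with a log2 fold change of -0.19 (SE 0.11), at an adjusted p of 0.256 by edgeR. *Hmgcs1* (ENSMUSG00000093930, chromosome 13, 119690379 to 119708260, plus strand, GRCm38), whose product condenses acetoacetyl-CoA to HMG-CoA, had 93.8, 86.3 and 92.2 CPM in the GFP libraries, 76.2 and 82.2 CPM in Ezh2 replicates 1 and 2, and 59.2 CPM in Ezh2 replicate 3. The mean was 90.8 ± 3.95 (SD, n = 3) in controls against 79.2 ± 4.22 CPM (SD, n = 2) in Ezh2 replicates 1 and 2, and the log2 fold change was -0.18 (SE 0.063), at an adjusted p of 0.0573 by edgeR. All Ezh2 libraries lay below all GFP libraries for both genes. *Acat2* has a close copy, *Acat3*, with which it may exchange reads, and *Hmgcs1* shares 557 exon bases with an antisense gene. The adjusted p of *Hmgcs1* was just above the threshold and passed it in 6 of 14 alternative fits, with adjusted p values of 0.0323 to 0.344 over the 14. In all 6 libraries its log2 fold change was -0.29 (SE 0.11), at an adjusted p of 0.149 by edgeR.

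The kinases and the decarboxylase of the mevalonate pathway showed no shared direction. *Mvk*, mevalonate kinase, had 19.2, 17.7 and 21.4 CPM with GFP and 17.8, 18.4 and 20.9 CPM with Ezh2 (log2 fold change -0.094 ± 0.10 SE, edgeR adjusted p = 0.591). *Pmvk*, the phosphomevalonate kinase gene, had 26.6, 24.9 and 22.7 CPM with GFP and 25.6, 25.5 and 22.5 CPM with Ezh2 (log2 fold change 0.057 ± 0.087 SE, edgeR adjusted p = 0.721). *Mvd*, whose product decarboxylates mevalonate pyrophosphate, had 10.7, 11.5 and 11.7 CPM with GFP and 11.9, 12.8 and 10.8 CPM with Ezh2 (log2 fold change 0.14 ± 0.11 SE, edgeR adjusted p = 0.454). Ezh2 replicates 1 and 2 of *Mvd* lay above the controls by less than the test could separate, and Ezh2 replicate 3 lay among them.

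*Idi1* and *Fdps*, which isomerise and join the isoprenoid units, were the least certain of the group. *Idi1* had 6.51, 5.78 and 6.18 CPM with GFP and 3.94, 6.08 and 2.34 CPM with Ezh2 (log2 fold change -0.28 ± 0.20 SE, edgeR adjusted p = 0.381). *Fdps* had 1.57, 2.18 and 2.86 CPM with GFP and 1.80, 2.20 and 1.00 CPM with Ezh2 (log2 fold change -0.13 ± 0.30 SE, edgeR adjusted p = 0.829). The Ezh2 libraries spread widely for both, from near the controls in replicate 2 to the lowest of all 6 in replicate 3. Exons of *Fdps* share 1124 bases with *Gm43738* on the same strand and those of *Idi1* share 323 bases with the antisense gene *Gm48574*, so reads may have been assigned elsewhere.

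**Figure D3:**
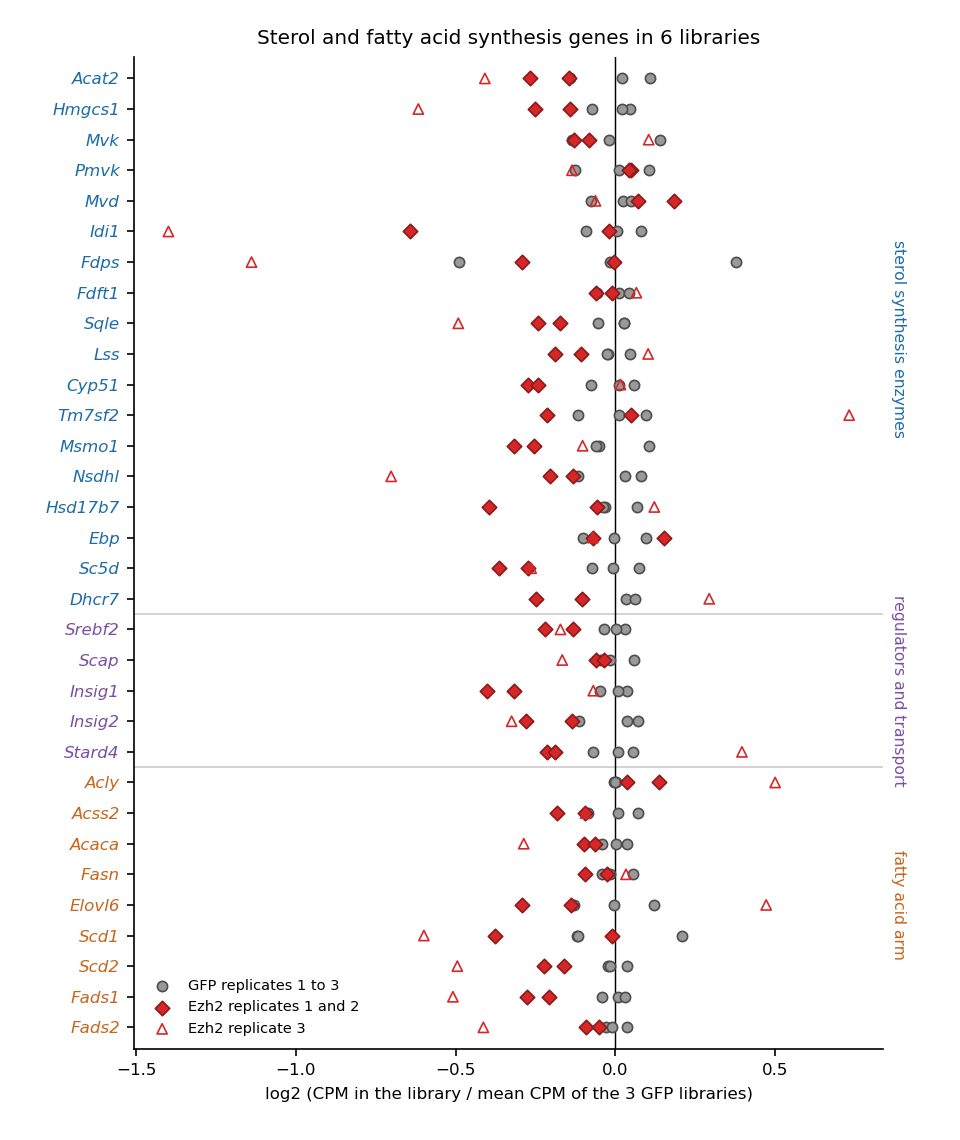
Each library's CPM as a log2 ratio to the mean of the 3 GFP libraries, for all 32 genes. Grey circles are GFP libraries, red diamonds Ezh2 replicates 1 and 2, and open triangles Ezh2 replicate 3. That replicate lies outside the range of the other 5 libraries for 22 of the 32 genes, and for 63.3% of all genes tested.

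From squalene onward, 3 of the 11 enzymes fell in the 5 libraries (7.07% of all genes tested did). With all 6 libraries 0 fell (2.27% of genes). *Fdft1*, squalene synthase, was close to its controls, with 28.7, 30.1 and 30.7 CPM with GFP and 29.6, 28.6 and 31.2 CPM with Ezh2 (log2 fold change -0.024 ± 0.077 SE, edgeR adjusted p = 0.879). *Sqle*, the squalene epoxidase gene and a control point of the pathway, had 48.7, 46.1 and 48.7 CPM in the GFP libraries, 40.5 and 42.5 CPM in Ezh2 replicates 1 and 2, and 34.03 CPM in Ezh2 replicate 3. Its log2 fold change was -0.19 (SE 0.071), at an adjusted p of 0.0746 by edgeR, and the groups did not overlap. *Lss*, lanosterol synthase, had 48.7, 48.6 and 51.2 CPM with GFP and 43.4, 45.9 and 53.2 CPM with Ezh2 (log2 fold change -0.14 ± 0.070 SE, edgeR adjusted p = 0.213). *Fdft1* shares 774 exon bases with *Ctsb* on the opposite strand.

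*Cyp51* (ENSMUSG00000001467, chromosome 5, 4081145 to 4104746, minus strand), which encodes the lanosterol demethylase, had 41.6, 40.3 and 37.9 CPM in the GFP libraries, 33.1 and 33.8 CPM in Ezh2 replicates 1 and 2, and 40.4 CPM in Ezh2 replicate 3. Ezh2 replicates 1 and 2 lay below every GFP library, and replicate 3 lay within the range of the controls. The gene fell by 15.6% in the 5 libraries, from 39.9 ± 1.89 (SD, n = 3) to 33.4 ± 0.513 CPM on average (SD, n = 2), with a log2 fold change of -0.24 (SE 0.075), at an adjusted p of 0.0353 by edgeR. With all 6 it was -0.12 (SE 0.11), at an adjusted p of 0.546 by edgeR. Its exons share 166 bases with *Akap9* on the opposite strand.

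*Msmo1* (ENSMUSG00000031604, chromosome 8, 64718139 to 64733792, minus strand), the methylsterol monooxygenase gene, acts in the same removal of methyl groups. It had 46.9, 42.1 and 41.8 CPM in the GFP libraries, 35 and 36.6 CPM in Ezh2 replicates 1 and 2, and 40.6 CPM in Ezh2 replicate 3. All Ezh2 libraries lay below all GFP libraries, with replicate 3 closest to them. The decrease was 17.3% in the 5 libraries, from 43.6 ± 2.88 (SD, n = 3) to 35.8 ± 1.11 CPM on average (SD, n = 2), with a log2 fold change of -0.27 (SE 0.078), at an adjusted p of 0.0232 by edgeR. Over all 6 libraries it was -0.18 (SE 0.10), at an adjusted p of 0.302 by edgeR.

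*Sc5d* (ENSMUSG00000032018, chromosome 9, 42251595 to 42264256, minus strand), the lathosterol desaturase gene, had 53.1, 47.96 and 50.1 CPM in the GFP libraries, 39.1 and 41.7 CPM in Ezh2 replicates 1 and 2, and 41.98 CPM in Ezh2 replicate 3. All Ezh2 libraries were lower than all GFP libraries and lay close to one another. It fell by 19.1%, the most among the sterol enzymes that passed, from 50.4 ± 2.56 (SD, n = 3) to 40.4 ± 1.82 CPM on average (SD, n = 2), with a log2 fold change of -0.31 (SE 0.074), at an adjusted p of 0.0087 by edgeR. With Ezh2 replicate 3 the size was similar but the test was not passed (log2 fold change -0.26 ± 0.084 SE, edgeR adjusted p = 0.112).

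The other late enzymes did not pass the test. *Nsdhl*, the sterol dehydrogenase that removes the carboxyl group, had 17.2, 15.5 and 17.8 CPM with GFP and 15.3, 14.6 and 10.3 CPM with Ezh2 (log2 fold change -0.16 ± 0.10 SE, edgeR adjusted p = 0.328), and its groups did not overlap. *Hsd17b7*, the partner ketoreductase gene, had 11.1, 11.1 and 11.9 CPM with GFP and 10.9, 8.65 and 12.4 CPM with Ezh2 (log2 fold change -0.21 ± 0.13 SE, edgeR adjusted p = 0.313). *Ebp*, the sterol isomerase gene, had 25.9, 24.2 and 27.8 CPM with GFP and 24.7, 28.9 and 24.7 CPM with Ezh2 (log2 fold change 0.058 ± 0.093 SE, edgeR adjusted p = 0.738), with overlapping groups.

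For a further pair of sterol reductases, Ezh2 replicate 3 was the highest library of all. *Tm7sf2* had 10.7, 11.7 and 12.4 CPM with GFP and 12.02, 10.02 and 19.3 CPM with Ezh2 (log2 fold change -0.069 ± 0.12 SE, edgeR adjusted p = 0.767). *Dhcr7*, which makes cholesterol itself from dehydrocholesterol, had 22.9, 25.2 and 25.6 CPM with GFP and 20.7, 22.9 and 30.1 CPM with Ezh2 (log2 fold change -0.16 ± 0.090 SE, edgeR adjusted p = 0.263). With all 6 libraries the log2 fold changes were 0.30 ± 0.25 for *Tm7sf2* and 0.046 ± 0.16 for *Dhcr7* (SE). Exons of *Tm7sf2* share 532 bases with *Vps51* on the same strand.

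Of the 5 regulator and transport genes, *Srebf2* and *Insig1* fell. *Srebf2* (ENSMUSG00000022463, chromosome 15, 82147181 to 82205379, plus strand) had 293, 279.6 and 287 CPM in the GFP libraries, 261 and 246 CPM in Ezh2 replicates 1 and 2, and 254 CPM in Ezh2 replicate 3. All Ezh2 libraries lay below all GFP libraries. The decrease was 10.8%, from 286 ± 6.55 (SD, n = 3) to 254 ± 10.7 CPM on average (SD, n = 2), with a log2 fold change of -0.17 (SE 0.049), at an adjusted p of 0.029 by edgeR. Over all 6 libraries it was -0.13 (SE 0.060), at an adjusted p of 0.205 by edgeR.

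*Insig1* (ENSMUSG00000045294, chromosome 5, 28071363 to 28078662, plus strand), itself a target of the factor it restrains, had 56.5, 53.2 and 55.4 CPM in the GFP libraries, 44.2 and 41.7 CPM in Ezh2 replicates 1 and 2, and 52.5 CPM in Ezh2 replicate 3. Ezh2 replicates 1 and 2 lay well below the controls, whereas replicate 3 lay just under the lowest of them. It fell by 21.5%, the most of the 32 members, from 55.1 ± 1.65 (SD, n = 3) to 42.9 ± 1.76 CPM on average (SD, n = 2), with a log2 fold change of -0.35 (SE 0.067), at an adjusted p of 0.00183 by edgeR. Adding Ezh2 replicate 3 gave -0.21 (SE 0.11), at an adjusted p of 0.271 by edgeR.

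*Insig2*, the second anchor gene, had 42.1, 46.8 and 47.8 CPM with GFP and 37.6, 41.5 and 36.4 CPM with Ezh2 (log2 fold change -0.19 ± 0.080 SE, edgeR adjusted p = 0.12), with no overlap between the groups. *Scap*, the escort, had 132, 129 and 139 CPM with GFP and 128, 130.0 and 119 CPM with Ezh2 (log2 fold change -0.036 ± 0.054 SE, edgeR adjusted p = 0.716). *Stard4*, a soluble sterol carrier, had 18.2, 17.6 and 16.7 CPM with GFP and 15.1, 15.3 and 23.02 CPM with Ezh2 (log2 fold change -0.19 ± 0.10 SE, edgeR adjusted p = 0.208). In *Stard4*, Ezh2 replicate 3 was the highest of the 6 libraries and the other Ezh2 libraries were the lowest.

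Acetyl-CoA for both arms is supplied by ATP citrate lyase and by acetyl-CoA synthetase. *Acly*, the lyase gene, had 187.4, 186.8 and 187.2 CPM in the GFP libraries, 205.9 and 191.8 CPM in Ezh2 replicates 1 and 2, and 264.8 CPM in Ezh2 replicate 3. It was the only member for which all 3 Ezh2 libraries lay above all GFP libraries, although the difference did not pass the test in the 5 libraries (log2 fold change 0.10 ± 0.049 SE, edgeR adjusted p = 0.204) or in all 6 (log2 fold change 0.28 ± 0.13 SE, edgeR adjusted p = 0.214). *Acss2*, the synthetase gene, was lower in every Ezh2 library, with 42.2, 39.5 and 44.1 CPM with GFP and 36.9, 39.2 and 39.3 CPM with Ezh2 (log2 fold change -0.13 ± 0.076 SE, edgeR adjusted p = 0.298). Its exons overlap 3 antisense genes.

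The enzymes that build and lengthen palmitate did not pass the test. *Acaca*, the acetyl-CoA carboxylase gene of the rate-limiting step, had 129.6, 133 and 137 CPM with GFP and 125, 128 and 109 CPM with Ezh2 (log2 fold change -0.069 ± 0.053 SE, edgeR adjusted p = 0.423). *Fasn*, fatty acid synthase, had 547, 538 and 575 CPM with GFP and 543, 519 and 567 CPM with Ezh2 (log2 fold change -0.049 ± 0.048 SE, edgeR adjusted p = 0.548), with overlapping groups. *Elovl6*, whose product elongates palmitate, had 24.3, 22.3 and 26.6 CPM with GFP and 22.2, 19.95 and 33.9 CPM with Ezh2 (log2 fold change -0.20 ± 0.094 SE, edgeR adjusted p = 0.163). Ezh2 replicate 3 was the highest library for *Elovl6*, while the other Ezh2 libraries were the lowest.

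The decreases that passed the test in this arm were in desaturases. *Scd2* (ENSMUSG00000025203, chromosome 19, 44293674 to 44306864, plus strand), which places the double bond of monounsaturated fatty acids, had 1270.4, 1277 and 1322 CPM in the GFP libraries, 1106 and 1154 CPM in Ezh2 replicates 1 and 2, and 916 CPM in Ezh2 replicate 3. All Ezh2 libraries lay below all GFP libraries, and replicate 3 was lowest. The decrease was 11.7%, from 1289.8 ± 28.4 (SD, n = 3) to 1130.2 ± 33.8 CPM on average (SD, n = 2), with a log2 fold change of -0.18 (SE 0.046), at an adjusted p of 0.013 by edgeR. Over all 6 libraries it was -0.25 (SE 0.075), at an adjusted p of 0.0956 by edgeR. Its neighbour *Scd1*, at a far lower level, had 8.77, 8.78 and 11 CPM with GFP and 7.33, 9.45 and 6.28 CPM with Ezh2 (log2 fold change -0.17 ± 0.16 SE, edgeR adjusted p = 0.528).

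*Fads1* (ENSMUSG00000010663, chromosome 19, 10182888 to 10196877, plus strand) encodes a desaturase of polyunsaturated fatty acids. It had 218, 210.3 and 221 CPM in the GFP libraries, 179 and 187 CPM in Ezh2 replicates 1 and 2, and 152 CPM in Ezh2 replicate 3. The groups did not overlap, and replicate 3 was again the lowest. It fell by 14.7%, from 217 ± 5.64 (SD, n = 3) to 183 ± 5.99 CPM on average (SD, n = 2), with a log2 fold change of -0.23 (SE 0.052), at an adjusted p of 0.00557 by edgeR. Adding Ezh2 replicate 3 gave -0.29 (SE 0.074), at an adjusted p of 0.0656 by edgeR, the smallest adjusted p among the 32 members in that fit. *Fads2*, which lies beside it on chromosome 19 and encodes the desaturase of the preceding step, had 303, 307 and 316 CPM with GFP and 289, 298 and 232 CPM with Ezh2 (log2 fold change -0.059 ± 0.049 SE, edgeR adjusted p = 0.466), without overlap between the groups.

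The sterol and fatty acid arms were then set side by side. In the 5 libraries 3 of 18 sterol enzymes, 2 of 9 genes of the fatty acid arm and 2 of 5 regulators fell, and none rose (7.07% of all genes tested fell and 9.38% rose). The median log2 fold change was -0.16 for the sterol enzymes, -0.13 for the fatty acid arm and -0.19 for the regulators. Without *Acly* and *Acss2*, which serve both arms, the fatty acid median was -0.17. With all 6 libraries the medians were -0.083, -0.11 and -0.13 respectively.

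Averaged over its genes as log2 ratios to the GFP mean, the sterol arm lay at -0.18, -0.11 and -0.22 in Ezh2 replicates 1, 2 and 3 and between -0.045 and 0.048 in the GFP libraries. The value of replicate 3 rested on *Idi1* and *Fdps*, which had few counts there and lay at -1.40 and -1.14. Without these 2 genes, a choice made after seeing the data, the other 16 enzymes averaged -0.15, -0.13 and -0.088 in Ezh2 replicates 1, 2 and 3 and -0.044 to 0.031 in the GFP libraries, so that replicate 3 lay closest to the controls. The fatty acid arm lay at -0.14, -0.10 and -0.15, against -0.048 to 0.067. All these ratios used CPM by library totals, without the TMM scaling of the fits, so the place of Ezh2 replicate 3 may depend on the scaling. The difference between the arms was -0.043, -0.0088 and -0.065 in the Ezh2 libraries and -0.018 to 0.0079 in the GFP libraries, so that 1 Ezh2 library fell within the range of the controls. Without *Idi1* and *Fdps* it was -0.0072, -0.022 and 0.066, against -0.036 to 0.032, and the sign in replicate 3 turned. This difference was not tested, since the genes of an arm are not replicates.

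**Figure D4:**
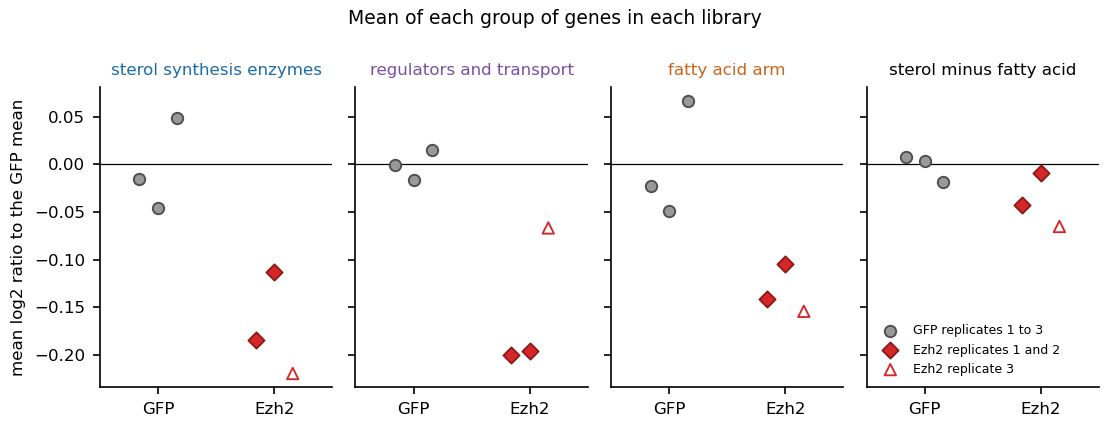
Mean log2 ratio to the GFP mean over the genes of each group in each library, with the difference of the sterol enzymes and the fatty acid arm at the right. Each Ezh2 library is below each GFP library in the first 3 panels, in CPM by library totals without the TMM scaling of the fits. The groups overlap in the fourth panel. *Idi1* and *Fdps* set the low sterol value of Ezh2 replicate 3, which is -0.088 without them.

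Ezh2 replicate 3 did not carry the members in 1 direction, and their split was near that of all genes tested. It lay below all 5 other libraries for 14 members (38.5% of genes tested did so) and above them all for 8 (24.8% of genes). The former included *Hmgcs1*, *Sqle*, *Idi1*, *Nsdhl*, *Scd2*, *Fads1* and *Fads2*. The latter were *Fdft1*, *Lss*, *Tm7sf2*, *Hsd17b7*, *Dhcr7*, *Stard4*, *Acly* and *Elovl6*, and of these only *Acly* was also above the controls in both other Ezh2 libraries.

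To place the members in their pathway, further genes of sterol and fatty acid handling were counted in the same fits. From a list of other sterol genes 3 are reported, named for their small adjusted p, and all 3 rose in the 5 libraries. Picked this way, they do not give the direction of the list. *Soat1*, which esterifies cholesterol, had 127, 126 and 134 CPM with GFP and 159, 175 and 129 CPM with Ezh2 (log2 fold change 0.38 ± 0.058 SE, edgeR adjusted p = 0.000268). *Npc2*, a carrier of lysosomal cholesterol, had 275, 284 and 271 CPM with GFP and 334, 369 and 315 CPM with Ezh2 (log2 fold change 0.36 ± 0.055 SE, edgeR adjusted p = 0.000272). *Lbr*, a nuclear envelope protein with sterol reductase activity, had 69.7, 62.7 and 66.6 CPM with GFP and 82.5, 81.2 and 111 CPM with Ezh2 (log2 fold change 0.31 ± 0.062 SE, edgeR adjusted p = 0.00215). For all of these genes, Ezh2 replicates 1 and 2 lay above every GFP library, and for *Soat1* replicate 3 lay among the controls. With it included, *Npc2* passed the edgeR test (adjusted p = 0.0314), and *Soat1* and *Lbr* did not (0.121 and 0.0794).

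Larger changes were measured in a list of 11 genes around the liver X receptors (LXRs) and sterol export. LXRs are nuclear receptors that respond to oxysterols when sterol is plentiful. Besides targets and export genes, the list holds the receptor genes themselves and genes of oxysterol enzymes. It does not hold every LXR target and was chosen with earlier results of these data known, so its counts do not stand for LXR targets in general. In the 5 libraries 6 of the 11 rose and 0 fell (9.38% and 7.07% of all genes tested), with a median log2 fold change of 0.47. In all 6 libraries 5 rose and 0 fell (2.73% and 2.27% of genes). At an unadjusted p under 0.05 by edgeR, 7 were higher and 2 lower in the 5 libraries, and again in all 6. Among all genes, 15.3% were higher and 13.5% lower in the 5 libraries, and 13.9% and 11.5% in all 6. *Abca1*, which exports cholesterol to apolipoproteins, had 429, 442 and 452 CPM in the GFP libraries, 865 and 955 CPM in Ezh2 replicates 1 and 2, and 759 CPM in Ezh2 replicate 3 (log2 fold change 1.06 ± 0.053 SE, edgeR adjusted p = 2.25e-09). *Abcg1*, a further exporter, had 119, 120.3 and 120.1 CPM with GFP and 229, 252 and 192 CPM with Ezh2 (log2 fold change 1.02 ± 0.055 SE, edgeR adjusted p = 5.65e-09). For both, the lowest Ezh2 library was more than 1.5 times as high as any GFP library. *Pltp*, the phospholipid transfer protein gene, had 19.7, 21.1 and 13.6 CPM with GFP and 38.2, 40.4 and 29.3 CPM with Ezh2 (log2 fold change 1.13 ± 0.13 SE, edgeR adjusted p = 1.79e-05). *Smpdl3a*, a phosphodiesterase gene, had 27.6, 27.01 and 25.3 CPM with GFP and 40.2, 55.7 and 38.2 CPM with Ezh2 (log2 fold change 0.86 ± 0.11 SE, edgeR adjusted p = 5.56e-05). Each of the 4 genes was higher in every Ezh2 library than in every GFP library, and in the 5 libraries each passed the fold change of 1.5 that no synthesis gene reached. Over all 6 libraries the log2 fold changes were 1.00 for *Abca1*, 0.94 for *Abcg1*, 1.02 for *Pltp* and 0.79 for *Smpdl3a*, with edgeR adjusted p values of 0.001, 0.00194, 0.021 and 0.0229.

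Among 27 other genes of fatty acids and glycerolipids, 3 rose and 3 fell in the 5 libraries, and 1 rose in all 6. These counts lay near the shares over all genes tested. Of those, 9.38% rose and 7.07% fell in the 5 libraries, and 2.73% and 2.27% in all 6. The smallest adjusted p values belonged to acyl-CoA synthetases, which activate fatty acids. *Acsl3* fell, with 2206, 2086 and 2192 CPM with GFP and 1716, 1794 and 1337 CPM with Ezh2 (log2 fold change -0.29 ± 0.046 SE, edgeR adjusted p = 0.000394). *Acsl6* fell too, with 226, 209 and 221 CPM with GFP and 188, 188 and 153 CPM with Ezh2 (log2 fold change -0.21 ± 0.051 SE, edgeR adjusted p = 0.0103). In contrast, *Acsl5* and *Acsl1* rose. *Acsl5* had 65.95, 60.5 and 54.4 CPM with GFP and 77.3, 80.2 and 90.8 CPM with Ezh2 (log2 fold change 0.40 ± 0.074 SE, edgeR adjusted p = 0.00148). *Acsl1* had 30, 30.8 and 27.01 CPM with GFP and 35.7, 38.3 and 32.8 CPM with Ezh2 (log2 fold change 0.35 ± 0.082 SE, edgeR adjusted p = 0.00712). All Ezh2 libraries stood on the same side of all GFP libraries for each of these 4 genes. In the fit of all 6, *Acsl5* passed the edgeR test (adjusted p = 0.0411), and *Acsl3*, *Acsl1* and *Acsl6* did not (0.0525, 0.0843 and 0.086). The median of this list in the 5 libraries was -0.015.

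**Figure D5:**
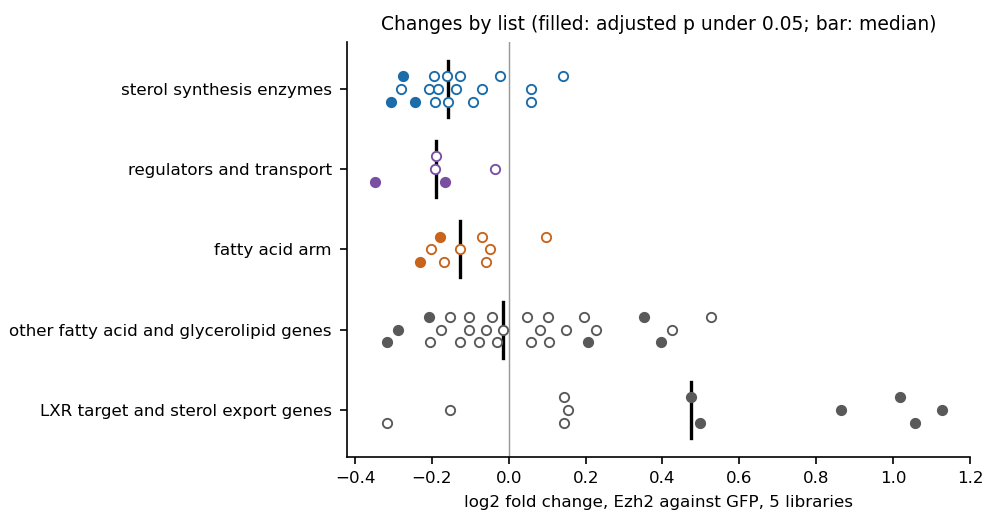
Log2 fold change in the 5 libraries of each gene of the 3 member groups, of other fatty acid genes and of the LXR and export list. Points are filled where the adjusted p was under 0.05, with a bar at each list's median. The member groups lie mostly left of 0 and the LXR and export genes reach past 1 on the right.

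Markers of several cell types moved with the same groups. The marker counts in this and the next paragraphs stand beside these shares of all genes tested. By adjusted p, 9.38% rose and 7.07% fell in the 5 libraries, and 2.73% and 2.27% in all 6. At an unadjusted p under 0.05 by edgeR, 15.3% were higher and 13.5% lower in the 5 libraries, and 13.9% and 11.5% in all 6. Of 10 Müller glia markers, 6 fell and 1 rose in the 5 libraries, and 3 fell and 1 rose in all 6. Their summed level was 31956 to 32639 CPM in the GFP libraries, 30435 to 32349 CPM in Ezh2 replicates 1 and 2, and 25103 CPM in replicate 3. The marker that rose was *Apoe*, an apolipoprotein gene that macrophages express as well, with 5471, 5637 and 5501 CPM with GFP and 8459.9, 9638 and 7102 CPM with Ezh2. Without it, a choice made after seeing the data, the other 9 markers summed to 26319 to 27152 CPM in the GFP libraries, 21975 to 22711 CPM in Ezh2 replicates 1 and 2 and 18001 CPM in replicate 3, without overlap between the groups. *Glul*, which led the list, had 9900.2, 9541 and 9829 CPM with GFP and 6937, 6898 and 5446 CPM with Ezh2. It was lower in every Ezh2 library than in every GFP library.

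Immune markers were higher in Ezh2 replicates 1 and 2. Of 7 macrophage markers tested, 6 rose, and their summed level was 137 to 148 CPM with GFP, 396 to 453 CPM in Ezh2 replicates 1 and 2 and 358 CPM in Ezh2 replicate 3. Of 9 microglia markers 7 rose, with sums of 2297 to 2532 CPM with GFP, 2931 to 3161 CPM in Ezh2 replicates 1 and 2 and 2144 CPM in Ezh2 replicate 3. Of 9 markers of T cells, which carry CD90 in mice, 8 rose, with sums of 453 to 484 CPM with GFP, 583 to 609.5 CPM in Ezh2 replicates 1 and 2 and 979 CPM in Ezh2 replicate 3. In all 6 libraries, 6 of the macrophage, 0 of the microglia and 2 of the T cell markers rose by edgeR, and 2 of the microglia markers were higher at an unadjusted p under 0.05. The microglia sum of Ezh2 replicate 3 was below those of the controls.

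Photoreceptor markers were higher too. Of 10 rod markers 8 rose, with sums of 467 to 552 CPM with GFP, 829 to 883 CPM in Ezh2 replicates 1 and 2 and 491 CPM in Ezh2 replicate 3. Of 9 cone markers 8 rose, with sums of 29.4 to 30.4 CPM with GFP, 59.4 to 67.9 CPM in Ezh2 replicates 1 and 2 and 39.8 CPM in Ezh2 replicate 3. In all 6 libraries, 0 rod markers (4 at an unadjusted p under 0.05) and 2 cone markers rose by edgeR, and the rod sum of Ezh2 replicate 3 lay within the range of the controls.

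Fewer markers passed in the remaining lists. Of 9 RGC markers tested 3 rose, among them *Thy1*, which led the list and whose product was the sorting antigen, and the list summed to 139 to 142 CPM with GFP, 158 to 171 CPM in Ezh2 replicates 1 and 2 and 172 CPM in Ezh2 replicate 3. Of 6 amacrine markers 2 fell (67.6 to 79.6 CPM with GFP, 44.9 to 49.5 CPM in Ezh2 replicates 1 and 2 and 47.7 CPM in Ezh2 replicate 3). Of 8 B and plasma cell markers 2 rose (2633 to 2766 CPM with GFP, 3073 to 3238 CPM in Ezh2 replicates 1 and 2 and 2026 CPM in Ezh2 replicate 3), and of 5 astrocyte markers 1 rose (843 to 881 CPM with GFP, 1152 to 1338 CPM in Ezh2 replicates 1 and 2 and 1061 CPM in Ezh2 replicate 3). Of 5 oligodendrocyte markers 1 rose, and *Mog*, *Mobp* and *Opalin*, which define that list, were at 0 counts in every library. In all 6 libraries 2 RGC markers, 1 B and plasma cell marker, 1 astrocyte marker and 0 oligodendrocyte markers (1 at an unadjusted p under 0.05) rose and 2 amacrine markers fell by edgeR. *Thy1* was not among those that passed then (adjusted p = 0.0868). Among bipolar, endothelial and mural, and pigment epithelium markers, 0 of 8, 7 and 3 tested passed in the 5 libraries by edgeR, with 2, 2 and 1 at an unadjusted p under 0.05 and 0, 1 and 0 by DESeq2. The part of these cell types in the decrease of the synthesis genes, and in the rise of genes in the LXR and export list, was not tested.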

How the data were processed

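RNA was sequenced from 6 libraries of sorted retinal cells. The table deposited by the authors holds raw read counts per Ensembl gene. STAR 2.7.0d and build GRCm38 are named per the labels. The counting tool, annotation release and strand setting are not given in the sources used here, so counts of the 8 members with antisense neighbours over their exons may be mixed. GENCODE M21 named 55480 of 55573 identifiers, and 0 count columns lacked a sample.

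Counts were filtered with filterByExpr, scaled by TMM and fitted with the edgeR 4.0.16 quasi-likelihood F test (R 4.3.3), two-sided, with Benjamini-Hochberg adjustment over all genes tested and no covariate, in GFP replicates 1 to 3 and Ezh2 replicates 1 and 2. SEs came from the F statistic. CPM used library totals without TMM factors, so comparisons of single libraries and the fits are on different scales. Each member had 36 counts or more in each library. A count of 0 allows up to 3 counts, or 0.0834 to 0.0981 CPM, which covers counting error only. Genes were named by rule: all members, and up to 4 genes with the smallest adjusted p in each other pathway list. Of a list of other sterol genes, some results are not reported here, so that its counts are not given. Members and lists were chosen with earlier results of these data known. The fit was tested on simulated counts. Same-numbered libraries did not deviate together (r = -0.011, -0.017 and -0.0076), so no pairing was used. No pair of libraries was alike within sampling noise. Alternatives were all 6 libraries, each of the 5 libraries left out, the replicate block, DESeq2 1.42.0, other scalings and filters and, added after seeing the data, a robust edgeR fit. Figures used matplotlib 3.10.9.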

Additional observations from a re-analysis of the deposited data

How the results depend on the processing

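The direction of all 7 genes that fell was kept in each of 14 alternative fits, but not their side of the threshold. With all 6 libraries, and with all 6 and the replicate block, 0 of the 7 passed. Leaving out 1 of the 5 libraries gave 3 to 6 members lower, and the replicate block in 5 libraries gave 5, without *Srebf2* and *Scd2*. RLE size factors gave 7, and library totals, no filter, a mean of at least 50 counts, DESeq2 and the robust fit gave 8 each, with *Hmgcs1* added. No member passed as higher in any of these fits. *Insig1* and *Fads1* passed in 12 of 14 alternatives, *Sc5d* in 11, *Msmo1* and *Scd2* in 10, *Cyp51* in 8 and *Srebf2* in 7. Adjusted p values ranged from 4.36e-05 to 0.282 for *Insig1*, 0.000267 to 0.139 for *Fads1*, 0.000733 to 0.209 for *Sc5d*, 0.00585 to 0.393 for *Msmo1*, 0.000758 to 0.173 for *Scd2*, 0.0231 to 0.587 for *Cyp51* and 0.00686 to 0.329 for *Srebf2*. Among all genes, 448 fell and 538 rose with all 6 libraries, and 104 and 215 with the block in all 6.

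The median of the sterol enzymes was -0.083 with all 6 libraries, -0.096 with the block in all 6, and -0.22 to -0.10 when 1 of the 5 libraries was left out. That of the fatty acid arm was -0.063 with the block in 5 libraries and -0.17 to -0.052 when 1 was left out. The cause of these moves was not tested. Some members that did not pass changed sign. With all 6 libraries, and with all 6 and the block, the log2 fold changes were 0.011 and 0.0086 for *Mvk*, 0.041 and 0.039 for *Fdft1*, 0.30 and 0.23 for *Tm7sf2*, 0.046 and 0.024 for *Dhcr7*, 0.075 and 0.040 for *Stard4*, 0.013 and 0.011 for *Fasn* and 0.10 and 0.059 for *Elovl6*. With the block in 5 libraries, *Pmvk* was at -0.00099 and *Fdps* at 0.11. Leaving out 1 of the 5 libraries gave -0.0025 to 0.11 for *Pmvk*, -0.64 to 0.0070 for *Idi1*, -0.32 to 0.10 for *Fdps*, -0.19 to 0.046 for *Tm7sf2*, -0.073 to 0.18 for *Ebp* and -0.38 to 0.015 for *Scd1*. The sign turned without GFP replicate 3 for *Pmvk* and *Fdps*, without Ezh2 replicate 1 for *Idi1*, *Fdps* and *Scd1*, and without Ezh2 replicate 2 for *Tm7sf2* and *Ebp*. With 1 Ezh2 library left, its spread was taken to be that of the GFP group.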
